A study of Mus musculus with 9 samples.

Results

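The expression of 10 genes of cytokine signalling was followed in mouse granulosa cells during induced ovulation: the receptor genes *Lepr*, *Il6st* and *Lifr*, the kinase gene *Jak2*, the transcription factor genes *Stat3* and *Stat5a*, and the feedback inhibitor genes *Socs1*, *Socs2*, *Socs3* and *Cish*. They are 10 of the 25059 gene identifiers in the tables and were found by symbol. All 10 were present, and all 10 reached 1 FPKM or more in at least 3 libraries, *Lepr* only through its 6 h libraries. FPKM counts fragments relative to transcript length and to all mapped fragments of a library, so levels can be set side by side between genes. The 10 genes were picked with their values at 0, 1 and 6 h already known. Their levels and differences are therefore given as a description, without a test, and support no further statement.

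The cells are granulosa cells, which surround the oocyte and make estradiol and progesterone, from ovaries of Kunming mice aged 21 postnatal days. All 3 groups had received 5 IU of PMSG, a gonadotropin with FSH activity that makes follicles grow, 48 h before time 0. The 0 h group had no hCG, and the 1 h and 6 h groups were collected 1 h and 6 h after 5 IU of hCG, which activates the LH receptor, with 3 libraries in each group. No genetic change is named in the labels, and it is not said whether a library holds the cells of 1 animal or of a pool. The p-values below therefore rest on the variation among the 3 libraries of a time, which may be technical only. With no library at a matched hour without hCG analysed here, effects of hCG and of the hour of collection cannot be told apart.

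As background, leptin and the interleukin-6 family bind class I cytokine receptors that have no kinase of their own. The leptin receptor acts as a homodimer, while gp130, the product of *Il6st*, is the shared signalling subunit that pairs with partners such as the LIF receptor. Bound JAK kinases then phosphorylate STAT3 or STAT5, which enter the nucleus and switch on genes that include *Socs3* and *Cish*. SOCS proteins and CISH bind the activated receptors or kinases and close the loop. Leptin is known as the adipose signal that ties energy stores to fertility, and LIF and interleukin-6 are known to act on cumulus cells around ovulation.

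The stretches around the RefSeq start sites (build GRCm38.p6, 250 bases before to 50 after the start) were searched on both strands for TTCNNNGAA, the palindrome bound by STAT dimers, for the cyclic AMP response element TGACGTCA, for the RUNX motif TGTGGT and for the AP-1 motif TGANTCA. All but the RUNX motif read alike on both strands, and no matches overlapped. Of the 10 genes 9 had at least 1 window, 12 windows in all, and 3 windows held a match. The 4 windows printed here are those of *Lepr*, the gene with the largest difference, and of 3 inhibitor genes that are textbook STAT targets, and capitals mark the matches. They are chr4:101717157-101717456 on the plus strand (the first of 2 *Lepr* windows), chr16:10785487-10785786 on the minus strand (*Socs1*), chr11:117969317-117969616 on the minus strand (*Socs3*) and chr9:107296409-107296708 on the plus strand (*Cish*).
Lepr: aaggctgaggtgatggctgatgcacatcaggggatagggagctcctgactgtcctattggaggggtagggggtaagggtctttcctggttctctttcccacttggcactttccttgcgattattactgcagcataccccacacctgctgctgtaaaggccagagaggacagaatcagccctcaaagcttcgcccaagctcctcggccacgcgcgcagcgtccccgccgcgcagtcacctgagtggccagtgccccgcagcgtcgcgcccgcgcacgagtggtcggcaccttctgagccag
Socs1: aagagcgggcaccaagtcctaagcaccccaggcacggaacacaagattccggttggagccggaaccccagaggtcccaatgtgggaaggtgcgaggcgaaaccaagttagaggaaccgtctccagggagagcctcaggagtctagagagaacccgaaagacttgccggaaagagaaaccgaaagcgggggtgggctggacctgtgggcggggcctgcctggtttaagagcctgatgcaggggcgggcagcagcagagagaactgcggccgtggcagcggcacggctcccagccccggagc
Socs3: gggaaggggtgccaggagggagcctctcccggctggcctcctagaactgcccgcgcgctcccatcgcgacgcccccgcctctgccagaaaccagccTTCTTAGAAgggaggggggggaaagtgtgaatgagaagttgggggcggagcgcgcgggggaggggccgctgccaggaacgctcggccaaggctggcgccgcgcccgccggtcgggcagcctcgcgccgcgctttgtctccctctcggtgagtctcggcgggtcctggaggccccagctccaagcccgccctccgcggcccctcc
Cish: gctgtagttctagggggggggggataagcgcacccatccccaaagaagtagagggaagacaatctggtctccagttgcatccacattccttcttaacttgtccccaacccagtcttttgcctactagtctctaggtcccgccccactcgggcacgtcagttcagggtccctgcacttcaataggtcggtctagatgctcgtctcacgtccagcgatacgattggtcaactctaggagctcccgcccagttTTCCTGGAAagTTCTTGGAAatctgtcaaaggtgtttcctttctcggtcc
*Cish* held 2 matches to the STAT motif, TTCCTGGAA from base 1 after the start and TTCTTGGAA from base 12, and *Socs3* held 1, TTCTTAGAA, from base -154. Of all 32851 windows of this length, 8.30% held the STAT motif, 1.79% the cyclic AMP response element, 16.8% the RUNX motif and 7.81% the AP-1 motif. The third window with a match was a *Stat5a* window with a RUNX motif, and the windows printed for *Lepr* and *Socs1* held none of the 4 motifs. A match describes letters only.

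The libraries were checked against marker genes. All 10 granulosa markers were present, with a summed level of 8797 to 9370 FPKM at 0 h, 9074 to 13468 at 1 h and 3683 to 4089 at 6 h. Most of this sum came from *Inha* and *Inhba* (means of 5413 and 2294 at 0 h). In 6 h replicate 3 *Amh*, *Foxl2* and *Amhr2* (81.0, 52.0 and 29.9 FPKM) stood above the other 6 h libraries, while *Inha*, *Inhba*, *Cyp19a1* and *Nr5a2* did not. Of the 10, 9 were called lower at 6 h than at 0 h (limma, Benjamini-Hochberg adjusted p below 0.05), beside 27.9% of all genes. Leukocyte markers summed to 11.9 to 20.2 FPKM at 0 h, 15.4 to 19.3 at 1 h and 9.87 to 12.9 at 6 h, with *Ly6g* at 0 throughout and 5 of 10 below 1 FPKM in all libraries. Of 9 theca and stroma markers 4 were called lower at 6 h than at 0 h, beside the same 27.9%. Their sum was 188 to 283 FPKM at 0 h, 245 to 381 at 1 h and 100.1 to 119.5 at 6 h. The highest of them, *Cyp17a1*, had means of 123 FPKM at 0 h and 21.9 at 6 h. *Ptch1* (21.6 and 20.4) and *Pdgfra* (4.83 and 5.04) differed little. Erythroid markers lay at 133 to 202, 89.7 to 204 and 69.5 to 133 FPKM, with 2 of 4 tested called lower at 6 h than at 0 h. At 6 h all 8 oocyte markers were called higher than at 0 h, beside 28.8% of all genes (39.7 to 58.9 FPKM at 0 h, 50.5 to 62.0 at 1 h, 69.2 to 104 at 6 h). Endothelial markers summed to 17.9 to 25.4, 21.2 to 23.6 and 26.6 to 34.7 FPKM, and 3 of 7 tested were called higher at 6 h than at 0 h. The part of these cells in the results below was not tested. In bulk RNA, fewer cells of a type and less RNA per cell cannot be told apart. The sum of FPKM per library ran from 491920 to 495500 at 0 h, 527034 to 570986 at 1 h and 513434 to 539279 at 6 h. The number of reads behind a value is unknown.

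The leptin receptor gene *Lepr* (ENSMUSG00000057722, chr4:101717404-101815352, plus strand, GENCODE M21 on mm10) was below 1 FPKM at 0 h and 1 h and close to the level of *Il6st* 6 h after hCG. Its summed level was 0.637, 0.448 and 0.349 FPKM in the 0 h libraries, 0.524, 0.711 and 0.568 at 1 h, and 43.5, 57.6 and 47.8 at 6 h. The 0 h and 1 h ranges overlapped, and every 6 h library lay far above all 6 others. The 0 h mean was 0.478 ± 0.146 FPKM, the 1 h mean 0.601 ± 0.0977 and the 6 h mean 49.6 ± 7.19 (SD, n = 3 each), a ratio of means of 104 between 6 h and 0 h. On the log2(FPKM + 1) scale, which understates differences that start from low values, the 6 h level was 5.09 ± 0.13 (SE) above 0 h and 4.98 ± 0.13 above 1 h, while 1 h was 0.12 ± 0.13 above 0 h. With a pseudocount of 0.1 in place of 1 the 6 h difference from 0 h was 6.45. On the log2(FPKM + 1) scale *Lepr* stood at place 13 from the highest of 14535 genes tested for 6 h against 0 h. This place describes a gene picked with its values known.

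The tables list *Lepr* in 4 rows without transcript names, so the long signalling form and the short forms of the receptor cannot be told apart here. The first row held 29.7, 34.0 and 28.3 FPKM at 6 h, which is 68.3%, 59.1% and 59.2% of the gene. The second held 5.68, 13.5 and 9.32 FPKM and the third 8.14, 10.1 and 10.2. The fourth was listed at 0 in all 9 libraries. No row exceeded 0.563 FPKM in any library at 0 h or 1 h, and all 3 detected rows were higher in every 6 h library than in any earlier one. From the first row alone the log2 difference between 6 h and 0 h was 4.53.

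**Figure D1:**
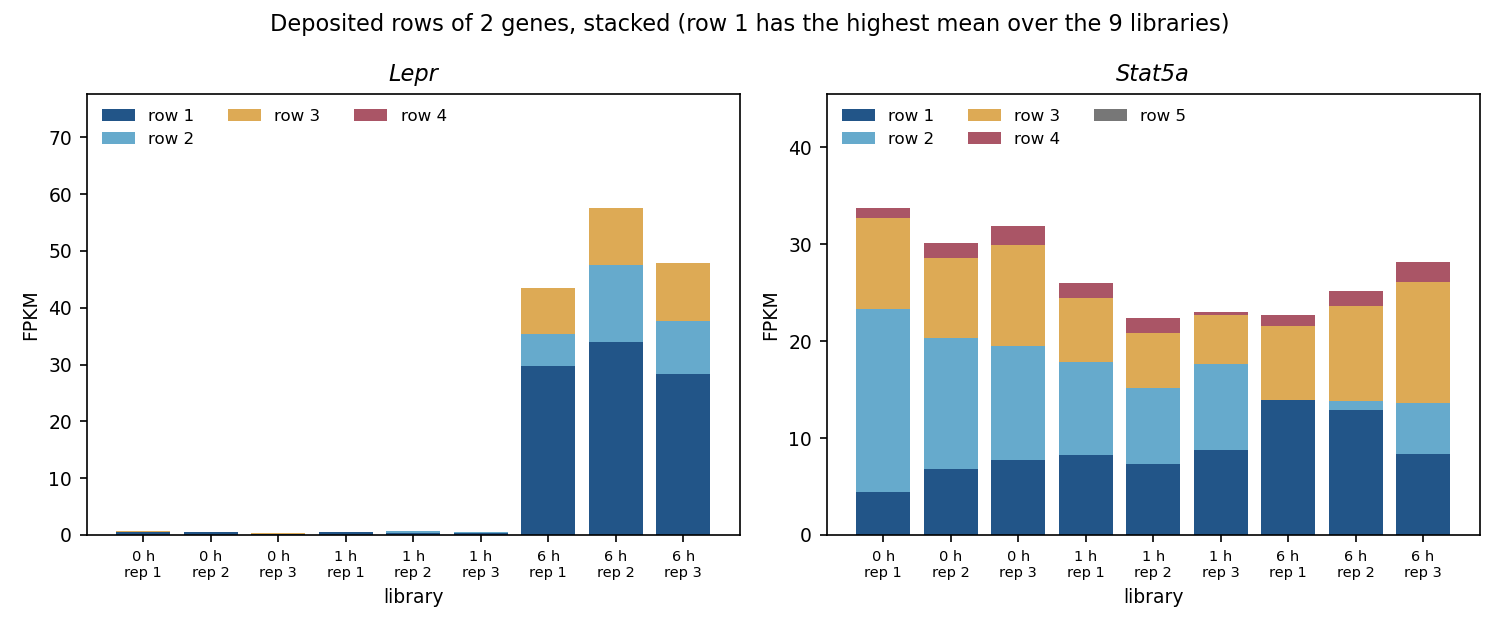
FPKM of each deposited row of *Lepr* (left) and *Stat5a* (right), stacked, in each of the 9 libraries; row 1 is the row with the highest mean. The *Lepr* stack reaches 43.5 to 57.6 FPKM in the 6 h libraries and stays under 1 FPKM in the others, while in *Stat5a* row 2 is smaller and row 1 larger in every 6 h library than in any 0 h library.

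The gp130 gene *Il6st* (ENSMUSG00000021756, chr13:112464070-112510086, plus strand) was level in comparison. It stood at 37.0, 41.1 and 38.6 FPKM at 0 h, 41.3, 41.2 and 45.7 at 1 h, and 42.3, 42.0 and 47.0 at 6 h. The 1 h and 6 h libraries lay just above those at 0 h, by 0.13 ± 0.07 and 0.16 ± 0.07 (log2, SE), and overlapped each other. This small difference at 1 h turned to -0.02 with FPKM scaled to a common sum and to -0.01 under quantile normalization, and that at 6 h shrank to 0.072 and 0.037. Of the 9 rows of *Il6st*, 2 carried most of the level, with a mean share of 52.3% and 37.2% at 0 h and 49.3% and 38.1% at 6 h.

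The LIF receptor gene *Lifr* (ENSMUSG00000054263, chr15:7090614-7197489, plus strand), the partner of gp130 for LIF, stood lower at the later times. Its level was 23.7, 30.9 and 33.7 FPKM at 0 h, 22.6, 23.5 and 24.0 at 1 h, and 20.5, 18.2 and 18.1 at 6 h. The 6 h libraries lay below all those at 0 h and 1 h, while 0 h and 1 h overlapped through 0 h replicate 1. The log2 difference from 0 h was -0.30 ± 0.12 at 1 h and -0.60 ± 0.12 at 6 h. Of its 3 rows, the first made up 51.2 to 54.4% of the gene in the 1 h libraries, below the 56.2 to 58.3% of the 0 h libraries. The second row went the other way, from 37.2 to 39.9% in the 0 h libraries to 41.9 to 44.2% in those of 1 h. In the 6 h libraries both rows overlapped their 0 h range, with 51.3 to 58.2% for the first and 34.9 to 46.2% for the second. The share of the third row overlapped between all times.

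**Figure D2:**
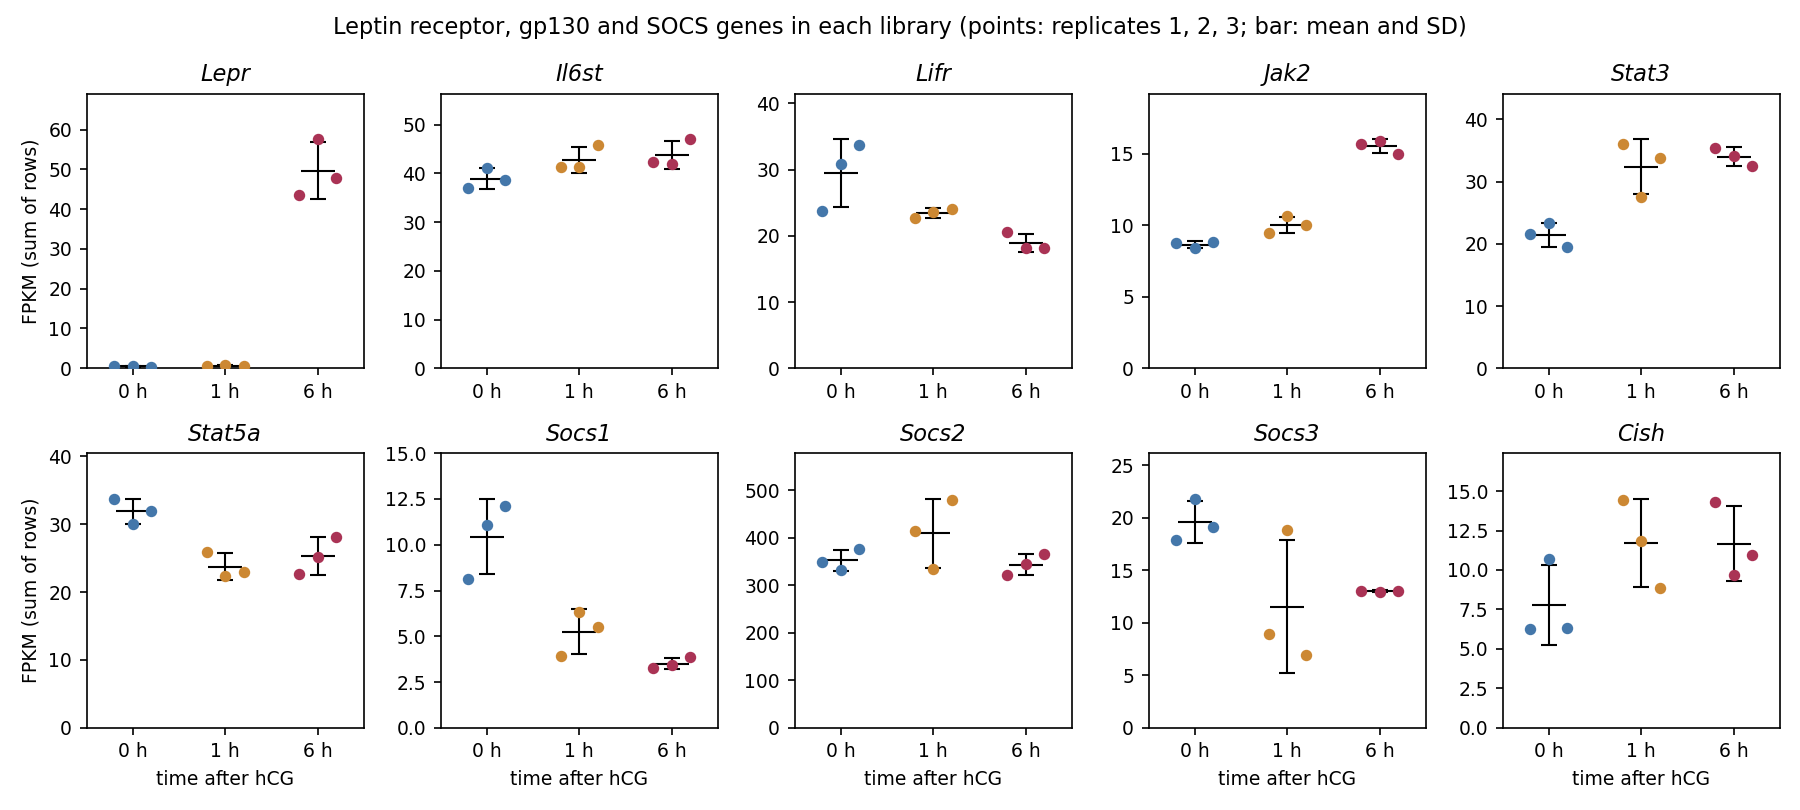
FPKM of the 10 genes (sum of rows, linear axis from 0, a separate scale per gene) against time after hCG; points are the 3 libraries of a time, the bar is the mean and SD. *Lepr* stands at 43.5 to 57.6 FPKM at 6 h and below 1 FPKM before, *Socs1* is highest at 0 h, and *Socs3* at 1 h is split between replicate 2 and the other libraries.

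*Jak2* (ENSMUSG00000024789, chr19:29251828-29313080, plus strand) encodes the kinase that the leptin receptor binds. It stood at 8.74, 8.40 and 8.83 FPKM at 0 h, 9.48, 10.6 and 9.99 at 1 h, and 15.7, 15.9 and 15.0 at 6 h. The groups were ordered without overlap, and the 6 h mean of 15.5 ± 0.477 was 1.80 times that of 0 h (log2 difference 0.78 ± 0.07, and 0.19 ± 0.07 for 1 h against 0 h). With FPKM scaled to a common sum the 1 h difference was 0.045, and from the most abundant row it was 0.12. A second *Jak2* row held 2.73 FPKM in 0 h replicate 3 and 4.37 in 1 h replicate 2, and at most 0.0383 in the other libraries.

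The transcription factor gene *Stat3* (ENSMUSG00000004040, chr11:100885098-100939540, minus strand), which encodes the factor that gp130 and the leptin receptor activate, was already higher at 1 h. Its level was 21.5, 23.4 and 19.4 FPKM at 0 h, 36.0, 27.5 and 33.7 at 1 h, and 35.5, 34.1 and 32.5 at 6 h. All 1 h and 6 h libraries lay above all those at 0 h, and the later 2 times overlapped. The log2 difference from 0 h was 0.57 ± 0.10 at 1 h and 0.65 ± 0.10 at 6 h. That at 1 h was 0.41 with FPKM scaled to a common sum. The first row carried 77.8% of the gene at 0 h and 80.9% at 6 h.

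*Stat5a* (ENSMUSG00000004043, chr11:100859351-100885169, plus strand) encodes the factor through which prolactin and growth hormone act. It stood at 33.7, 30.1 and 31.9 FPKM at 0 h, 26.0, 22.4 and 23.0 at 1 h, and 22.7, 25.1 and 28.2 at 6 h. Both later groups lay below 0 h without overlap, by 0.41 ± 0.09 and 0.33 ± 0.09 on the log2 scale. The difference at 1 h was -0.57 with FPKM scaled to a common sum. This direction holds for the sum of its 5 rows and not for each of them. The second row stood at 18.9, 13.5 and 11.7 FPKM at 0 h and 0.000121, 0.944 and 5.19 at 6 h, whereas the first row measured 4.38, 6.78 and 7.76 at 0 h and 13.9, 12.9 and 8.40 at 6 h. From the first row alone the log2 difference was 0.34 at 1 h and 0.80 at 6 h, opposite in sign to the sum. *Stat5a* shares 72 bases at its 3′ end with the end of *Stat3* on the other strand, and much of its coding sequence resembles that of the neighbouring *Stat5b*, so fragments of these genes may be split with error. *Stat5b*, tested as one of the other pathway genes, measured 23.8 ± 0.522 FPKM at 0 h and 28.0 ± 1.47 at 6 h.

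**Figure D3:**
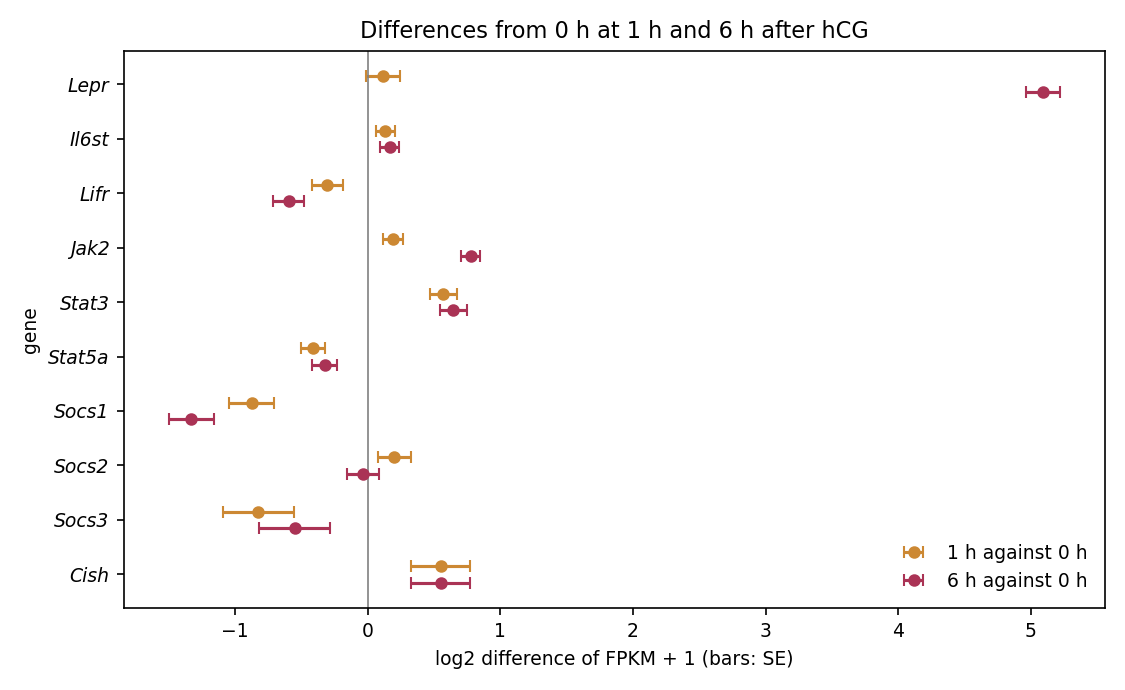
Log2 differences of FPKM + 1 from 0 h for the 10 genes at 1 h and at 6 h (points, with the SE of the fit as bars); both times share the 0 h libraries. *Lepr* at 6 h stands at 5.09, while the other values lie between -1.33 and 0.78.

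Among the inhibitors, *Socs2* (ENSMUSG00000020027, chr10:95385362-95417180, minus strand), which restrains growth hormone and STAT5 signalling, was by far the most abundant of the 10 genes. It stood at 349.7, 331 and 376 FPKM at 0 h, 413, 334 and 479 at 1 h, and 321, 344 and 365 at 6 h. The groups overlapped in all 3 comparisons. The difference of 0.20 ± 0.12 at 1 h became -0.04 under quantile normalization, and that of -0.04 ± 0.12 at 6 h became -0.22. Of its 7 rows 1 held 80.7% of the gene at 0 h, 80.4% at 1 h and 81.2% at 6 h.

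*Socs1* (ENSMUSG00000038037, chr16:10782240-10785536, minus strand), an inhibitor that binds JAK kinases directly, had the lowest difference of the 10. Its single row read 8.13, 11.1 and 12.1 FPKM at 0 h, 3.91, 6.34 and 5.49 at 1 h, and 3.24, 3.42 and 3.85 at 6 h. The 3 times were ordered without overlap, and the 6 h mean was 0.336 of that at 0 h. The log2 difference from 0 h was -0.88 ± 0.17 at 1 h and -1.33 ± 0.17 at 6 h, and it lay between -1.48 and -1.22 at 6 h when any single library was left out.

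*Socs3* (ENSMUSG00000053113, chr11:117966079-117970047, minus strand), the STAT3 target that binds gp130 and the leptin receptor, did not stand above its 0 h mean at either later time. Its single row read 17.9, 21.8 and 19.1 FPKM at 0 h, 8.94, 18.8 and 6.89 at 1 h, and 13.0, 12.9 and 13.1 at 6 h. At 1 h replicate 2 lay within the 0 h range and the other libraries lay below all of the 0 h and 6 h ones, while the 6 h libraries lay below all those at 0 h and close to each other. The log2 difference at 1 h was -0.83 ± 0.27, and it became -1.21 without 1 h replicate 2 and -0.55 without 1 h replicate 3. At 6 h it was -0.55 ± 0.27.

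*Cish* (ENSMUSG00000032578, chr9:107296026-107302784, plus strand), a STAT5 target that acts on cytokine receptors, had overlapping groups in all 3 comparisons. It stood at 6.27, 10.7 and 6.33 FPKM at 0 h, 14.4, 11.9 and 8.86 at 1 h, and 14.3, 9.69 and 11.0 at 6 h. Replicate 2 at 0 h overlapped both later groups. The log2 difference from 0 h was 0.55 ± 0.22 at 1 h and 0.55 ± 0.22 at 6 h, each 0.78 without 0 h replicate 2. The antisense gene *Gm17041* and the pseudogene *Gm17040* overlap *Cish* on the opposite strand, and the labels do not say whether strand was kept.

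Set in order of level, *Socs2* led at every time and *Lepr* was last at 0 h and 1 h. At 6 h *Lepr* and *Il6st* followed *Socs2* with overlapping ranges, then came *Stat3*, *Stat5a*, *Lifr* and *Jak2*, each without overlap with the next, and *Socs1* was last. At 0 h the neighbours *Stat5a* and *Lifr*, *Stat3* and *Socs3*, and *Socs1*, *Jak2* and *Cish* overlapped. Counting only genes whose 2 groups of 3 libraries did not overlap, 3 of the 10 were higher (*Il6st*, *Jak2*, *Stat3*) and 2 lower (*Stat5a*, *Socs1*) at 1 h than at 0 h. Of all genes tested, 35.5% did not overlap there, 18.3% higher and 17.2% lower. At 6 h against 0 h, 4 were higher (*Lepr*, *Il6st*, *Jak2*, *Stat3*) and 4 lower (*Lifr*, *Stat5a*, *Socs1*, *Socs3*), against 64.9% of all genes (32.9% higher and 32.1% lower). Between 6 h and 1 h, 2 were higher (*Lepr*, *Jak2*) and 2 lower (*Lifr*, *Socs1*), against 60.5% (30.5% higher and 30% lower). The comparisons share libraries, and the 10 genes were chosen on them, so nothing is read from these counts.

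The genes most like *Lepr* were taken as those with the smallest root mean square distance in log2(FPKM + 1), each gene centred on its own 0 h mean, over the 9 libraries and among 9730 genes. The nearest was *Snap25*, which encodes a protein of vesicle fusion, at a distance of 0.181, with means of 0.0521 FPKM at 0 h, 0.148 at 1 h and 30.7 at 6 h. It was followed by *Rnf125* at 0.340 and by *Alcam*, an adhesion molecule gene, at 0.464. *Alcam* started from 7.41 FPKM at 0 h and reached 186 at 6 h, so its likeness is in the size of the difference and not in the level. For *Socs3* the nearest were *Tmem126b* at 0.218, with means of 9.00, 5.07 and 5.56 FPKM at 0, 1 and 6 h, and *Thumpd2* at 0.224, with 11.5, 6.20 and 6.22. These distances describe 9 libraries and rank genes by the pattern and the size of their differences from 0 h.

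The rest of the pathway was taken from 5 lists by role, 56 genes of which 55 were in the tables and 46 could be tested (limma on log2(FPKM + 1), Benjamini-Hochberg adjusted p below 0.05). At 1 h against 0 h, 7 were called higher and 3 lower, where 9.68% of all genes were called higher and 5.98% lower. A scaling of FPKM to a common sum, which moved the median of all genes to -0.14, gave counts of 5 and 8, beside 1003 genes higher and 2628 lower in place of 1407 and 869. At 6 h against 0 h, 23 were called higher and 7 lower, beside 28.8% and 27.9% of all genes (56.6% in either direction), with a median difference of 0.25 beside -0.00 for all genes tested. At 6 h against 1 h, 21 were called higher and 9 lower, beside 26.7% and 26.9% (53.5% in either direction). *Il6*, *Osmr* and *Il6ra* entered the test only through their 6 h libraries. Without these 3 the counts at 6 h against 0 h were 20 higher and 7 lower of 43, with a median difference of 0.22. At 6 h against 1 h they were 18 higher and 9 lower of 43.

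Among 10 ligand genes 4 could be tested. Of these 2 were called higher at 6 h than at 0 h, beside 28.8% of all genes. *Il6*, 1 of the 2, passed the filter on low values only through its 6 h libraries. *Lep*, which encodes leptin itself, was listed at 0 in all 9 libraries. *Clcf1*, an interleukin-6 family cytokine that signals through gp130 and the LIF receptor, stood at 1.08, 2.22 and 0.966 FPKM at 0 h, 1.60, 1.86 and 1.37 at 1 h and 10.3, 13.4 and 10.5 at 6 h. All its 6 h libraries lay above the others, and the log2 difference from 0 h was 2.38 ± 0.19 (limma adjusted p = 5.43e-06). *Il6*, encoding interleukin-6, stood at 0.084, 0.158 and 0.0351 FPKM at 0 h and 2.02, 1.87 and 1.36 at 6 h, which is given as a description for that reason. *Lif*, too low for the test, stood at 0.151, 0.143 and 0.124 FPKM at 0 h and 0.9, 1.30 and 1.05 at 6 h.

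Of 8 other receptor genes 7 could be tested, with 3 called higher and 2 lower at 6 h than at 0 h. The shares of all genes called there were 28.8% higher and 27.9% lower. Of the 3 called higher, *Il6ra* and *Osmr* passed the filter only through their 6 h libraries. Without them 1 higher (*Leprot*) and 2 lower of 5 are left. *Leprot*, the neighbour of *Lepr* on the same strand, whose product limits leptin receptor at the cell surface, had a 0 h mean of 26.5 ± 0.758 FPKM, a 1 h mean of 25.4 ± 1.10 and a 6 h mean of 49.7 ± 2.27 (SD, n = 3). It rose by 0.88 ± 0.06 at 6 h (limma adjusted p = 2.44e-06). As a description, the interleukin-6 receptor gene *Il6ra* had means of 0.688 ± 0.171 FPKM at 0 h and 3.04 ± 0.779 at 6 h, and the oncostatin M receptor gene *Osmr* 0.489 ± 0.14 and 1.69 ± 0.11. In contrast *Il11ra1*, the interleukin-11 receptor gene, fell from 9.66 ± 1.37 to 3.23 ± 1.24 FPKM (limma adjusted p = 1.49e-04), and the growth hormone receptor gene *Ghr* from 13.3 ± 4.86 to 7.03 ± 0.436 (limma adjusted p = 0.0136). The prolactin receptor gene *Prlr*, abundant at 188 ± 15.8 FPKM at 0 h and 219.9 ± 31.7 at 6 h, was not called (0.22, limma adjusted p = 0.123), but was called higher without 6 h replicate 3 (0.34, adjusted p = 0.0153).

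Among 7 tested kinase and STAT genes, 2 were called higher and 3 lower at 6 h than at 0 h. Of all genes tested, 28.8% were called higher and 27.9% lower there. With FPKM scaled to a common sum, and also under quantile normalization, the counts in this list were 1 and 3. *Jak3* was called lower, from 2.77 ± 0.525 to 1.45 ± 0.0482 FPKM (limma adjusted p = 0.00352). From its most abundant row the log2 difference was -0.046 (adjusted p = 0.938). *Jak1*, the kinase that gp130 mainly uses, stood at 223, 200.3 and 242 FPKM at 0 h, 264, 247 and 317 at 1 h and 131, 131 and 142 at 6 h. It fell at 6 h against 0 h by 0.71 on the log2 scale (limma adjusted p = 2.43e-04), while *Jak2* was higher in all 6 h libraries. *Tyk2*, a further JAK gene, rose from 5.50 ± 0.579 to 7.66 ± 0.245 FPKM (limma adjusted p = 0.00688). The higher call for *Stat5b* at 6 h (limma adjusted p = 0.0164) ended at an adjusted p of 0.109 with FPKM scaled to a common sum, 0.118 under quantile normalization, 0.0502 without 0 h replicate 3 and 0.0699 without 6 h replicate 2. *Stat2*, which encodes an interferon-activated factor, was the only gene of this list called at 1 h, lower by 0.50 ± 0.13 (limma adjusted p = 0.029). That call ended at adjusted p-values of 0.0883, 0.0919 and 0.0936 when 0 h replicate 1, then 0 h replicate 2, then 1 h replicate 3 was left out, and at 0.0502 with no filter. Its most abundant row alone differed by 0.015.

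All 14 other inhibitor and adaptor genes could be tested. At 1 h 2 were called higher, the phosphatase genes *Ptpn2* and *Ptpn11*, and both calls ended with FPKM scaled to a common sum (adjusted p = 0.166 and 0.611) and under quantile normalization (0.0631 and 0.21). Both also ended without any 1 of the 0 h libraries, 1 h replicate 1 or 1 h replicate 3, at 0.0519 to 0.0919 for *Ptpn2* and 0.0833 to 0.133 for *Ptpn11*, whose call ended without any 1 of the 6 h libraries too (0.0588 to 0.0713). *Pias3*, whose product inhibits STAT3, stood at 22.8, 24.3 and 26.4 FPKM at 0 h, 10.7, 17.5 and 11.2 at 1 h and 20.6, 20.1 and 20.5 at 6 h. It fell at 1 h (-0.88 ± 0.15, limma adjusted p = 0.0044) and rose again from 1 h to 6 h (0.63 ± 0.15, limma adjusted p = 0.0063). At 6 h against 0 h 7 were called higher and 1 lower, beside 28.8% and 27.9% of all genes. The former include *Socs5* (5.79 ± 0.469 to 8.89 ± 0.617 FPKM, limma adjusted p = 6.05e-04) and *Ptpn1*, the phosphatase gene known for restraining JAK2 (11.0 ± 0.597 to 16.2 ± 0.858 FPKM, limma adjusted p = 8.22e-04). The gene called lower was *Socs7*, singled out after its values were seen (23.1 ± 1.27 to 18.2 ± 1.30 FPKM, limma adjusted p = 0.0136, and 0.053 without 6 h replicate 1).

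Of the known STAT3 and STAT5 target genes, some were highest at 1 h and others at 6 h. At 1 h 5 of 14 tested were called higher and 1 lower, beside 9.68% and 5.98% of all genes. At 6 h against 0 h 9 were called higher and 1 lower, beside 28.8% and 27.9%. The 6 h counts were 7 and 2 with FPKM scaled to a common sum and 8 and 2 under quantile normalization. The gene lower at 1 h was *Bcl2l1*, singled out after its values were seen (-0.74, limma adjusted p = 0.00407). That call ended at 0.17 from its most abundant row. The higher call of *Bcl2l1* at 6 h (limma adjusted p = 0.0452) ended at 0.16 and 0.189 with those normalizations. The immediate early gene *Junb* stood at 71.6, 80.5 and 81.0 FPKM at 0 h, 623, 471 and 643 at 1 h and 124, 130.3 and 112 at 6 h. It rose by 2.87 ± 0.12 at 1 h (limma adjusted p = 5.05e-07) and fell between 1 h and 6 h by 2.23. The kinase genes *Pim3* (23.1 ± 1.99 to 70.5 ± 12.4 FPKM, limma adjusted p = 2.86e-05) and *Pim1* (4.61 ± 0.464 to 9.70 ± 1.33, limma adjusted p = 0.00121) also rose at 1 h and fell between 1 h and 6 h. Another set was highest at 6 h. *Timp1*, an inhibitor of matrix proteases, stood at 46.0, 65.3 and 36.1 FPKM at 0 h and 245, 293 and 245 at 6 h (2.42 ± 0.17, limma adjusted p = 2.71e-06). *Fgl2* rose by 2.64 ± 0.27 (limma adjusted p = 2.66e-05) and *Bcl3*, a regulator of NF-kappaB, by 1.67 ± 0.21 (limma adjusted p = 9.14e-05). For *Socs3* and *Cish*, which are also STAT targets, the 1 h means were 0.589 and 1.51 times those at 0 h. *Myc*, singled out after its values were seen, fell by 6 h (limma adjusted p = 0.0147), a call that ended at 0.052 without 0 h replicate 2 and at 0.16 from its most abundant row.

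**Figure D4:**
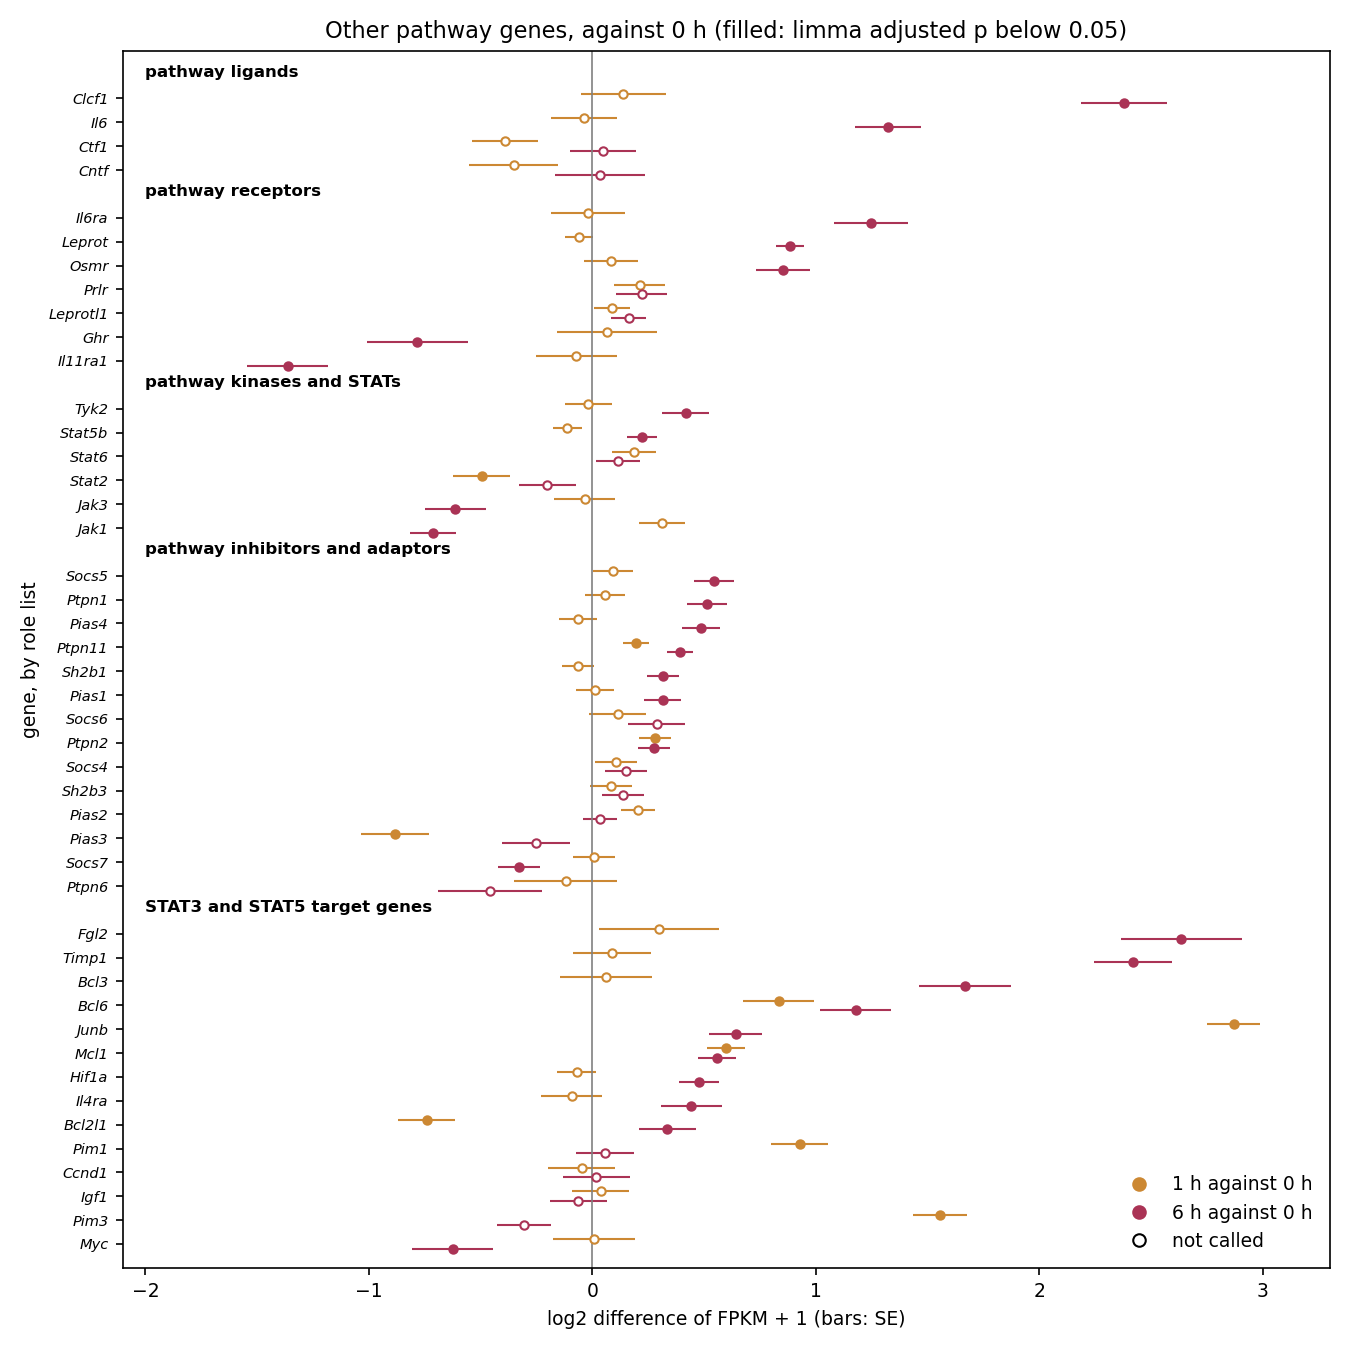
Log2 differences of FPKM + 1 from 0 h for the tested genes of the 5 role lists, 1 of them left out, at 1 h and at 6 h (points, with the SE as bars; filled points have a limma adjusted p below 0.05). *Junb* stands highest at 1 h, and *Fgl2*, *Timp1* and *Clcf1* stand highest at 6 h.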

How the data were processed

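Bulk RNA-seq was made from total RNA of granulosa cells in 9 libraries, 3 in each of 3 groups. The deposited tables give the authors' FPKM values, several rows to a gene. Per the submitters' processing notes, HISAT2 2.0.5 and the mm10 build were used, while the tool that made the FPKM values is not given in the sources used here. Rows were summed per gene identifier, and 27 symbols turned into dates were restored. Reads could not be recovered from the FPKM values, so depth is unknown and no counting interval is given.

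Differences were fitted with limma 3.58.1 in R 4.3.3 on log2(FPKM + 1) over all 9 libraries, for the 14535 genes that reached 1 FPKM in 3 or more libraries, with Benjamini-Hochberg adjustment and a threshold of 0.05. The script was tested on simulated data. Gene positions are from GENCODE M21 and start-site windows from RefSeq. The 10 genes, the role lists and the marker lists were chosen with earlier results of these data known. Named from each role list were up to 3 called genes with the largest difference per comparison, and any ligand, receptor, kinase or STAT gene. *Socs7*, *Bcl2l1* and *Myc* were named after their values were seen. *Cebpd* was not analysed here. Of the kinase and STAT list, 1 tested gene stays in the counts and is not reported here. Alternatives were a pseudocount of 0.1, no filter, FPKM scaled to a common sum, quantile normalization, the most abundant row only, a replicate block, and leaving out each library in turn.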

Additional observations from a re-analysis of the deposited data

How the results depend on the processing

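The depth behind the FPKM values is unknown, and 3 libraries a group limit all tests. Of 15 alternatives, 9 leave out 1 library. The number of all genes called at 1 h against 0 h was 2276, and 3631 with FPKM scaled to the mean sum, where 8 other pathway genes were called lower in place of 3; from the most abundant row only it was 1. At 1 h against 0 h, 2824 genes were called without 1 h replicate 2, 1199 without 1 h replicate 3 and 1305 without 1 h replicate 1. Without 0 h replicates 1, 2 and 3 the number was 1424, 1499 and 1389. Leaving out each library in turn gave 1199 to 2824 genes at 1 h against 0 h. It gave 6863 to 8406 at 6 h against 0 h and 6374 to 7703 at 6 h against 1 h. For the other pathway genes it gave 5 to 8 higher and 2 to 3 lower at 1 h against 0 h, 17 to 23 and 5 to 8 at 6 h against 0 h, and 17 to 22 and 8 to 10 at 6 h against 1 h. These counts include *Il6*, *Osmr* and *Il6ra* wherever no 6 h library was left out. From the most abundant row only, *Stat5a* turned to 0.34 at 1 h and 0.80 at 6 h against 0 h, and *Stat2* to 0.015 at 1 h; the cause was not tested. For 35 other pathway genes, 59 values kept their direction and lost a call, in 11 genes, the value of *Stat2* that turned lost its call too, and 23 gained one. Same-numbered libraries correlated at -0.08 to 0.15 in their deviations from the group means, and libraries with different numbers at -0.15 to 0.086. These ranges overlap and cannot decide whether the numbers pair the samples. With the replicate block, 1991, 8089 and 7632 genes were called in the 3 comparisons, and 7, 23 and 22 other pathway genes higher and 3, 8 and 10 lower; *Prlr* was then called higher at 6 h against 0 h (adjusted p = 0.0365).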
